A study of Oryza sativa with 9 samples.

Results

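The chromosome 10 tau glutathione S-transferase cluster was taken as every feature of the rice gene set with a number between LOC_Os10g38100 and LOC_Os10g38800. This rule uses position in the numbering only, and it gave 69 of 57931 features. Expression was measured by RNA-seq in 9 libraries of rice (Oryza sativa) roots, harvested a month after planting. The groups, each with 3 replicates, were roots of Sea Rice 86 grown in sea water (SR86 SW), roots of SR86 grown in fresh water (SR86 FW) and roots of the common rice R1 grown in fresh water (R1 FW). SR86 is a seawater-adapted cultivar. R1 is described in the study as a hybrid of low salt tolerance that does not survive in sea water, and no R1 library was made from sea water. The labels call both cultivars japonica, whereas the study describes SR86 as an indica type.

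Glutathione S-transferases (GSTs) join the tripeptide glutathione to reactive or foreign compounds, which makes these compounds more soluble and marks them for transport into the vacuole. The tau class is specific to plants, is one of the largest GST classes in rice, and is known for detoxification of herbicides and for induction by many stresses. Tau genes often lie side by side as tandem copies. Near-identical copies share short reads, so the estimate for one locus depends on how the shared reads were divided.

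Annotations were available for 22 of the 69 members, since the study annotated only loci that it listed as changed in these same libraries. Of these, 16 were annotated as GST, between LOC_Os10g38140 and LOC_Os10g38740, and the class was visible in the name for 3 of them (GSTU6 for LOC_Os10g38340, LOC_Os10g38489 and LOC_Os10g38600). The other 6 were a cytochrome P450 (LOC_Os10g38110), an NADPH-dependent oxidoreductase (LOC_Os10g38206), an ATP synthase B chain (LOC_Os10g38272), a chloroplast 30S ribosomal protein S2 (LOC_Os10g38278), a receptor-like protein kinase 2 precursor (LOC_Os10g38450) and LOC_Os10g38270, listed without a name. The remaining 47 carried no annotation, and how many of them are also GST genes is not known here, so "the 16 GST loci" below means those annotated as GST. Counts over the annotated loci are not independent evidence of change, because annotation itself followed from a call on these libraries, which also requires expression.

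Values are FPKM, fragment counts scaled by transcript length and library size, so levels can be compared between loci per length. The study also names TMM normalization, a scaling between libraries, and whether it entered these values is not given in the sources used here. The number of reads is unknown from these values. Relative depth was judged by the most common ratio of values in R1 FW1 to those in each library. Only features above 0 in at most 5 libraries entered it. By this measure the SW libraries were 1.76 to 2.40 times as deep as R1 FW1. The SR86 FW libraries were 0.950 to 1.36 times and the other R1 FW libraries 1.31 to 1.67 times as deep. The peak of ratios held only 33 to 49 features in the SR86 libraries, and 384 and 105 in R1 FW2 and R1 FW3. Replicates correlated at 0.943 to 0.965 in SR86 SW, 0.926 to 0.957 in SR86 FW and 0.983 to 0.995 in R1 FW (Pearson's r across features, which are not independent replicates). The root silicon transporters Lsi1 and Lsi2 were present in all libraries, at 151 FPKM or more for Lsi1 and 105 FPKM or more for Lsi2. The SR86 FW libraries stood apart in organelle transcripts and in the total of all values. Summed mitochondrial features (LOC_Osm1) were at 244 to 568 FPKM in SR86 SW, against 992 to 2518 FPKM in SR86 FW, with R1 FW at 222 to 541 FPKM. Summed plastid features (LOC_Osp1) were at 215 to 352, 406 to 939 and 185 to 307 FPKM in SR86 SW, SR86 FW and R1 FW, and 11 nuclear photosynthesis loci summed to 29.1 to 42.1, 70.0 to 137 and 30.1 to 48.2 FPKM in the same groups. Summed pre-tRNA features were at 71.4 to 194 FPKM in SR86 SW, against 183 to 739 FPKM in SR86 FW, with R1 FW at 36.4 to 112 FPKM. The FPKM of all features summed to 622262 to 647564 in SR86 SW, against 705081 to 726598 in SR86 FW, with R1 FW at 641897 to 672686. The part of these differences in the results that rest on the SR86 FW libraries was not tested. Fits with an organelle covariate are given below. Every SR86 FW library was above all other libraries in both organelle sums, so these fits cannot separate group from organelle level.

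Most of the summed FPKM of the cluster came from the loci annotated as GST. Of the 69 members, 17 were listed at 0 in all 9 libraries, 18 more stayed below 1 FPKM in every library, and 34 reached 1 FPKM in at least 1 library. The 16 GST loci all averaged 1 FPKM or more across all libraries and 12 averaged 10 FPKM or more. Of the 47 loci without annotation, 10 reached a mean of 1 FPKM and 3 reached 10 FPKM, a difference in level that the way loci came to be annotated favours. The 16 GST loci together had 246, 323 and 369 FPKM in SR86 SW, against 1393, 1304 and 745 FPKM in SR86 FW, with R1 FW at 812, 828 and 781 FPKM (replicates 1, 2 and 3, the order used throughout). All 3 SW libraries were below all 6 FW libraries in this sum. Since whole roots were measured, fewer cells that express these loci and less RNA per cell cannot be told apart. The 47 loci without annotation summed to 105, 93.9 and 93.3 FPKM in SR86 SW, against 109.8, 97.5 and 132 FPKM in SR86 FW. R1 FW was at 116, 110.3 and 111 FPKM. This range was much narrower, and SR86 SW and SR86 FW overlapped in it. The way loci came to be annotated favours this too, because only loci listed as changed in these libraries were annotated.

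**Figure D1:**
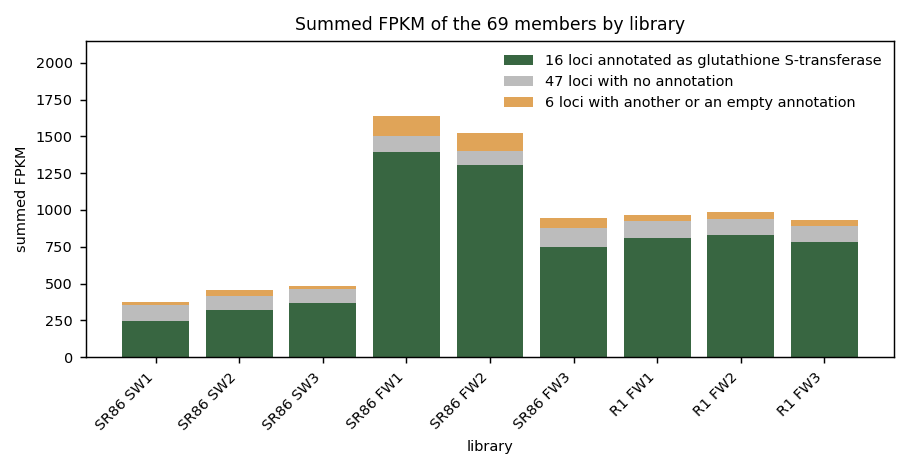
Summed FPKM of the 69 members in each library (x axis), stacked by annotation: 16 loci annotated as GST, 47 loci with no annotation and 6 loci with another or an empty annotation. The GST part is at 246 to 369 FPKM in SR86 SW, against 745 to 1393 FPKM in SR86 FW, with R1 FW at 781 to 828 FPKM.

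The 6 members with the highest mean over the 9 libraries were all annotated as GST: LOC_Os10g38600, LOC_Os10g38489, LOC_Os10g38360, LOC_Os10g38189, LOC_Os10g38590 and LOC_Os10g38640. The 4 most abundant GST loci of each library held 54.5 to 65.3% of the GST sum in SR86 SW, 62.0 to 73.0% in SR86 FW and 62.4 to 64.1% in R1 FW. At the other end, LOC_Os10g38610 stayed below 1 FPKM in all SW libraries, and LOC_Os10g38580 below 1 FPKM in all R1 FW libraries. The plot of members by library shows these levels beside those of the other loci.

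**Figure D2:**
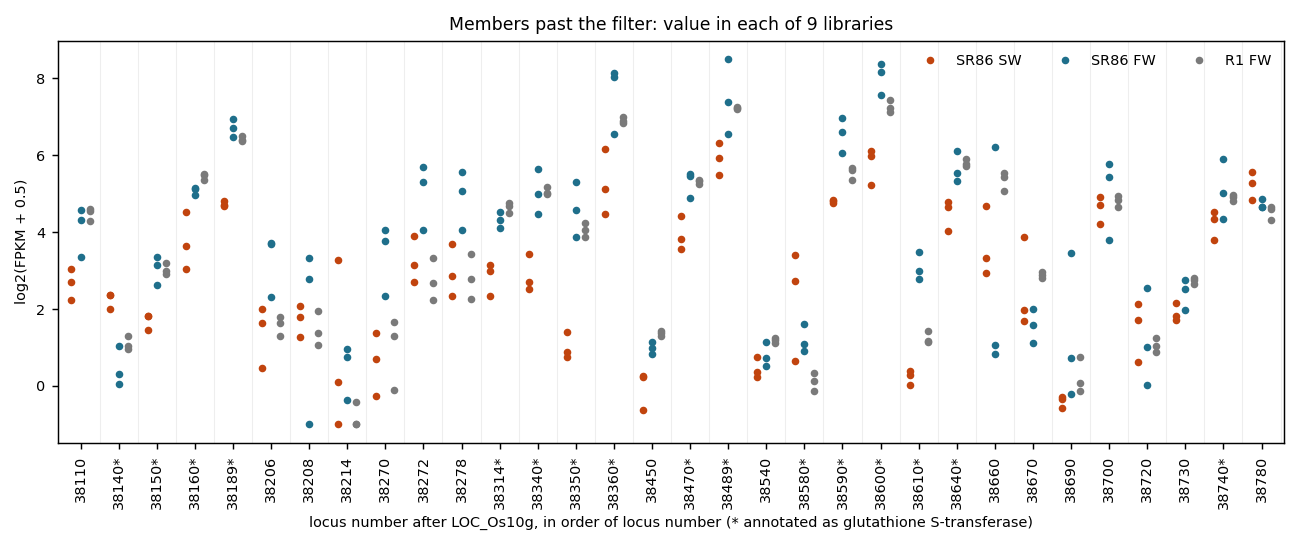
Value of each of the 32 members tested between SW and FW in SR86, in each of the 9 libraries, as log2(FPKM + 0.5) on the y axis against locus number on the x axis. Each point is 1 library, with SR86 SW left, SR86 FW in the middle and R1 FW right at each locus, and a value of 0 FPKM lies at -1. Most GST loci (asterisks) have their SW points below both FW groups, with LOC_Os10g38140, LOC_Os10g38580 and LOC_Os10g38740 as exceptions.

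The first comparison asked what sea water changed in SR86 roots. Of 69 members, 32 passed the filter (0.5 FPKM or more on average in the SR86 libraries) and were tested. A locus was called changed at an adjusted p under 0.05 in limma and a change of at least 2-fold, on the log2(FPKM + 0.5) scale, which understates the change of low loci. In SW, 16 members fell and 1 rose. Over all 23718 features tested, 12.7% were called, 4.29% as lower and 8.41% as higher. This balance depended on the scaling: 1017 features were lower and 1995 higher as deposited, against 1368 and 1165 with quantile normalization and 1376 and 1453 with median-ratio factors, where 18 and 17 members fell and 1 rose. The median log2 fold change of the tested members was -1.35, against 0.17 for all features. No overlap of SW with FW libraries was seen for 20 members that were lower in SW and 1 that was higher, where 16.6% and 28.3% of all features separated in these directions and 44.9% in either. Of the 16 GST loci, 12 fell and 1 rose, with a median of -1.53. Of the 6 loci with another or an empty annotation, 4 fell. Of all 23718 features, 9279 had an unadjusted p under 0.05 in limma. None of the 10 tested loci without annotation was called by limma, 1 of them had an unadjusted p under 0.05, and their median was 0.15. Loci that the study did not list as changed in these libraries had no annotation, so this contrast was favoured in advance.

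On both sides of the cluster, 12.8% of the tested loci were called in SW against FW, near the 12.7% of all features. Of 133 loci numbered from LOC_Os10g37400 to LOC_Os10g38099 and from LOC_Os10g38801 to LOC_Os10g39500, 86 were tested, of which 2 fell and 9 rose in SW, with a median of 0.31. Below the cluster 2 fell and 1 rose among 39 tested loci. Above it 0 fell and 8 rose among 47, of which 20 had an unadjusted p under 0.05 in limma in either direction. The same was true of 9279 of all 23718 features. These flank counts are for the values as deposited and were not made under the other scalings. The difference between cluster and flanks was not tested. The bar plot of shares shows it for all comparisons.

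**Figure D3:**
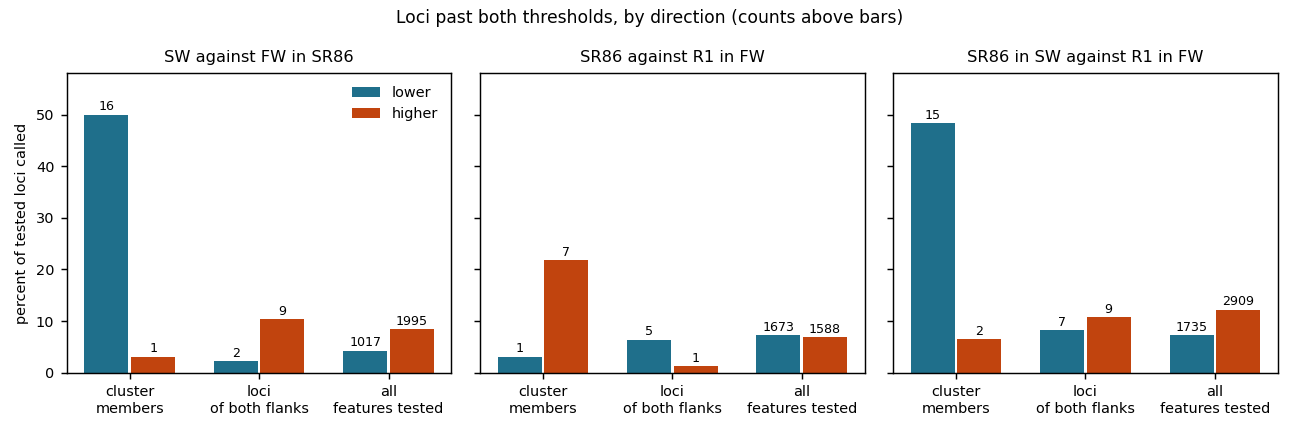
Percent of tested loci called lower (blue) or higher (orange) for the cluster members, the loci of both flanks and all features tested, in the 3 comparisons. Counts stand above the bars: 16 lower and 1 higher member in SW against FW, 1 lower and 7 higher in SR86 against R1, and 15 lower and 2 higher in SR86 SW against R1 FW.

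Of the 6 most abundant members, 5 fell in SW. LOC_Os10g38600, annotated as GSTU6, had 37.0, 68.7 and 63.1 FPKM in SR86 SW, against 288, 328 and 188 FPKM in SR86 FW. On the log2 scale the difference was -2.25 ± 0.30 (SE; means 56.3 ± 16.9 and 268 ± 72.1 FPKM in SW and FW, SD, n = 3 each; adjusted p = 0.0127 in limma). The highest SW library was below the lowest FW library by a wide margin. LOC_Os10g38360, a GST, had 21.7, 34.2 and 70.7 FPKM in SR86 SW, against 263, 280.2 and 92.7 FPKM in SR86 FW. The log2 fold change was -2.33 ± 0.55 (SE, adjusted p = 0.0341 in limma), and SR86 SW3 and SR86 FW3 came close to each other. LOC_Os10g38189, a GST, was the most even of the abundant members, with 25.3, 25.7 and 27.5 FPKM in SR86 SW, against 104, 123 and 87.9 FPKM in SR86 FW. Its log2 fold change was -1.97 ± 0.16 (SE, adjusted p = 0.00686 in limma).

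LOC_Os10g38590, a locus with a GST N-terminal domain, had 27.5, 28.1 and 26.7 FPKM in SR86 SW, against 97.3, 124 and 66.1 FPKM in SR86 FW. The log2 fold change was -1.74 ± 0.23 (SE, adjusted p = 0.0125 in limma), with SW libraries that were almost equal and FW libraries that were not. LOC_Os10g38640, a GST, had 24.5, 27.1 and 15.7 FPKM in SR86 SW, against 39.6, 68.4 and 45.8 FPKM in SR86 FW, and fell by 1.17 ± 0.28 on the log2 scale (SE, adjusted p = 0.0338 in limma). The second GSTU6 locus among the abundant members, LOC_Os10g38489, missed the threshold. It had 44.2, 60.7 and 79.4 FPKM in SR86 SW, against 361, 167 and 93.2 FPKM in SR86 FW. The groups did not overlap, and the log2 fold change was -1.57 ± 0.48 (SE) with an adjusted p of 0.0608 in limma.

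Falls were also seen in GST loci of middle or low level. LOC_Os10g38350, a GST, had 2.15, 1.34 and 1.2 FPKM in SR86 SW, against 14.3, 39.0 and 23.3 FPKM in SR86 FW. Its log2 fold change of -3.57 ± 0.38 (SE, adjusted p = 0.00973 in limma) was the largest in the cluster. LOC_Os10g38610, a GST at low level, had 0.710, 0.810 and 0.510 FPKM in SR86 SW, against 6.37, 10.6 and 7.44 FPKM in SR86 FW. It fell by 2.86 ± 0.27 on the log2 scale (SE, adjusted p = 0.00877 in limma), and all FW values were several times the SW values. LOC_Os10g38340, the other GSTU6 locus, had 5.22, 6.02 and 10.2 FPKM in SR86 SW, against 49.8, 31.4 and 21.5 FPKM in SR86 FW. On the log2 scale the difference was -2.16 ± 0.36 (SE, adjusted p = 0.0177 in limma). LOC_Os10g38314, with a GST N-terminal domain, had 4.54, 7.43 and 8.35 FPKM in SR86 SW, against 16.6, 22.6 and 19.5 FPKM in SR86 FW. This gave a log2 fold change of -1.49 ± 0.25 (SE, adjusted p = 0.0181 in limma), without overlap.

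The other 3 GST loci that fell had log2 fold changes between -1.36 and -1.34. LOC_Os10g38470 averaged 15.3 ± 4.99 FPKM in SW and 39.4 ± 8.81 FPKM in FW, and LOC_Os10g38160 averaged 14.0 ± 7.53 FPKM in SW and 33.2 ± 2.29 FPKM in FW. LOC_Os10g38150, with a GST N-terminal domain, averaged 2.77 ± 0.44 FPKM in SW and 7.89 ± 2.08 FPKM in FW (SD, n = 3 each). Their adjusted p-values were 0.0248, 0.042 and 0.0232 in limma. Outside the GST annotation was LOC_Os10g38110, a cytochrome P450, of a family of haem-containing oxygenases. It had 5.99, 4.25 and 7.75 FPKM in SR86 SW, against 9.69, 19.5 and 23.4 FPKM in SR86 FW. It fell by 1.42 ± 0.36 on the log2 scale (SE, adjusted p = 0.0404 in limma), with SR86 FW1 the lowest FW library. The oxidoreductase LOC_Os10g38206 had 2.60, 3.52 and 0.880 FPKM in SR86 SW, against 12.7, 12.3 and 4.47 FPKM in SR86 FW, and with a log2 fold change of -1.87 ± 0.53 (SE) it was not called (adjusted p = 0.0501 in limma).

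One GST rose in SW against this direction. LOC_Os10g38140 had 3.49, 4.64 and 4.63 FPKM in SR86 SW, against 1.54, 0.750 and 0.530 FPKM in SR86 FW. Its log2 fold change was 1.77 ± 0.32 (SE, adjusted p = 0.0202 in limma), and every SW value was more than that of any FW library. Its share of the GST sum was 1.37 ± 0.10% in SW and 0.08 ± 0.03% in FW (SD, n = 3 each), so it stayed a minor member. The low GST LOC_Os10g38580 had 6.11, 10.2 and 1.06 FPKM in SR86 SW, against 2.54, 1.38 and 1.64 FPKM in SR86 FW. The groups overlapped through SR86 SW3, and the log2 fold change of 1.06 ± 0.68 (SE) had an adjusted p of 0.288 in limma. LOC_Os10g38740, the last annotated GST, averaged 18.4 ± 4.60 FPKM in SW and 37.1 ± 20.5 FPKM in FW (SD, n = 3 each), and its log2 fold change of -0.88 ± 0.40 (SE) was not called (adjusted p = 0.154 in limma).

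**Figure D4:**
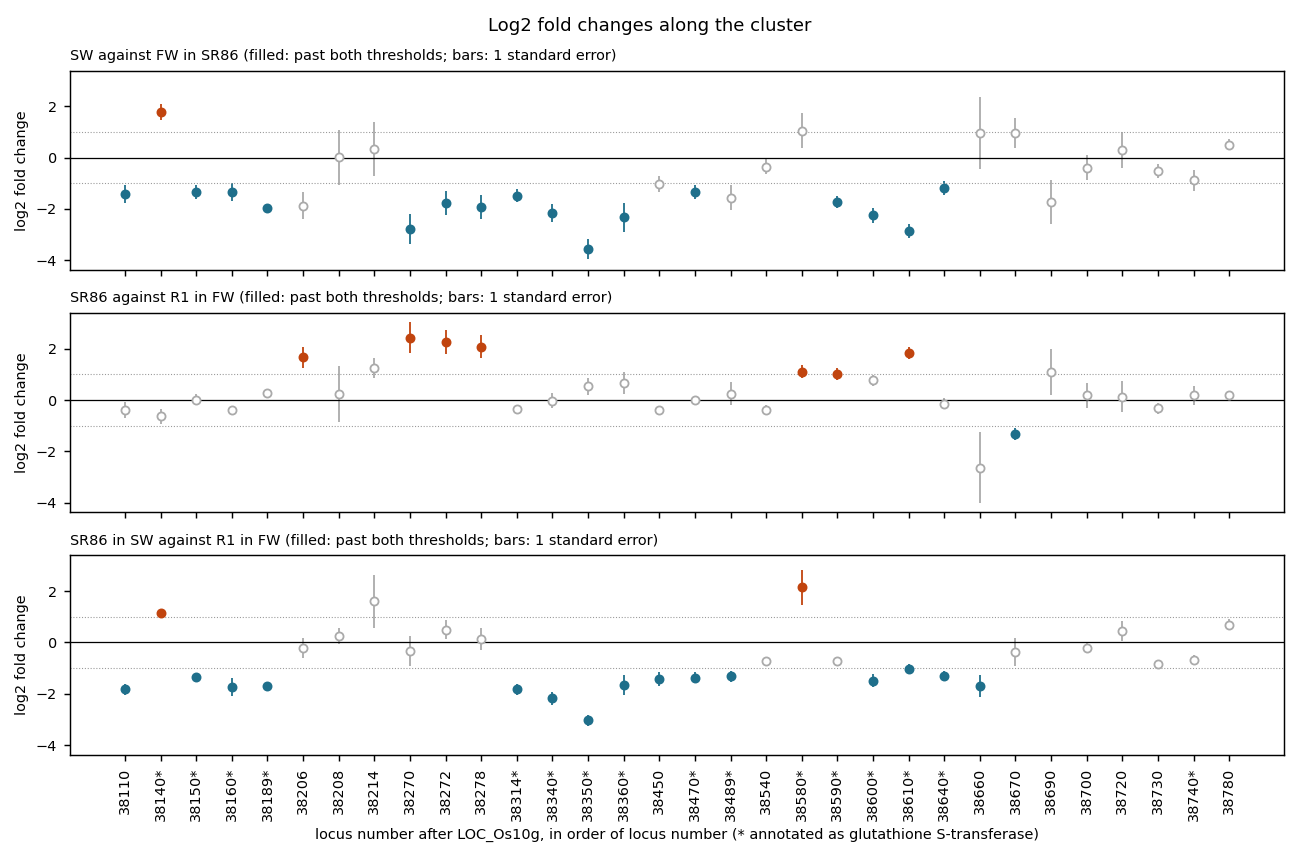
Log2 fold change of each tested member (y axis, 1 standard error as bars) against locus number (x axis) for SW against FW in SR86 (top), SR86 against R1 in FW (middle) and SR86 SW against R1 FW (bottom). Filled points passed both thresholds, blue for lower and orange for higher, and dotted lines mark a 2-fold change. The top and bottom panels share the SW libraries, with LOC_Os10g38350 lowest in both (-3.57 and -3.04).

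How many members passed the threshold depended on single libraries. Without SR86 SW1, SR86 SW2, SR86 FW1 or SR86 FW2, 3, 5, 9 and 4 members were called, and over all features 60, 623, 983 and 358 were called, against 3012 with all 6 libraries. All 17 called members kept their sign when any library was left out. LOC_Os10g38189, LOC_Os10g38350 and LOC_Os10g38610 were called under every alternative tried, including the removal of each library. With the summed mitochondrial or plastid features as a covariate over all 9 libraries, 6 and 9 members were called, and the median member change was -0.69 and -0.75. Over all features, 1477 and 1911 were called with these covariates.

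The second comparison asked how SR86 and R1 differ in fresh water. In SR86 FW, 7 members were higher and 1 was lower among 32 tested, where 14.1% of all 23168 features were called, 6.85% as higher and 7.22% as lower. The median log2 fold change of the members was 0.19, against -0.03 for all features. Of the loci in the flanks, 78 were tested, of which 5 were lower and 1 higher. The libraries did not overlap for 9 members higher and 3 lower in SR86, where 23.6% and 27.3% of all features separated in these directions and 50.9% in either. Of the 16 GST loci, 3 were higher and 0 lower, with 5 at an unadjusted p under 0.05 in limma and a median of 0.22. Of all 23168 features, 10214 had an unadjusted p under 0.05 in limma.

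LOC_Os10g38610 was the GST with the largest difference, at 6.37, 10.6 and 7.44 FPKM in SR86 FW, against 1.69, 1.75 and 2.19 FPKM in R1 FW. On the log2 scale the difference was 1.84 ± 0.22 (SE, adjusted p = 0.00273 in limma), and it was called without any 1 of the 6 libraries. LOC_Os10g38590 had 97.3, 124 and 66.1 FPKM in SR86 FW, against 48.1, 49.9 and 40.2 FPKM in R1 FW. Its log2 fold change of 1.01 ± 0.23 (SE, adjusted p = 0.0235 in limma) lay just past the 2-fold limit. LOC_Os10g38580 had 2.54, 1.38 and 1.64 FPKM in SR86 FW, against 0.410, 0.590 and 0.760 FPKM in R1 FW, a log2 fold change of 1.10 ± 0.25 (SE, adjusted p = 0.0221 in limma) at low level. LOC_Os10g38600 had an adjusted p of 0.0437 in limma but a log2 fold change of 0.77 ± 0.22 (SE), under the 2-fold limit. Of the other abundant GSTs, LOC_Os10g38489 averaged 207 ± 139 FPKM in SR86 FW, against 149.9 ± 3.24 FPKM in R1 FW, and LOC_Os10g38360 averaged 212 ± 104 FPKM in SR86 FW, against 119.5 ± 6.58 FPKM in R1 FW (SD, n = 3 each). Both pairs overlapped, because SR86 FW3 was low.

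The other 4 higher members were LOC_Os10g38206, LOC_Os10g38270, LOC_Os10g38272 and LOC_Os10g38278. LOC_Os10g38206, the NADPH-dependent oxidoreductase, had 12.7, 12.3 and 4.47 FPKM in SR86 FW, against 2.60, 2.98 and 1.97 FPKM in R1 FW, a log2 fold change of 1.66 ± 0.40 (SE, adjusted p = 0.0261 in limma). LOC_Os10g38270 had 15.98, 13.2 and 4.56 FPKM in SR86 FW, against 0.430, 2.67 and 1.97 FPKM in R1 FW, a log2 fold change of 2.43 ± 0.61 (SE, adjusted p = 0.0285 in limma). In both loci SR86 FW3 was the lowest of the SR86 FW libraries, as it was in organelle transcripts. The only member lower in SR86 was LOC_Os10g38670, which carries no annotation here, at 3.53, 2.48 and 1.66 FPKM in SR86 FW, against 6.89, 7.31 and 6.50 FPKM in R1 FW. The log2 fold change was -1.32 ± 0.25 (SE, adjusted p = 0.0121 in limma).

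These calls also depended on single libraries, and they were lost with the organelle covariates. Without R1 FW1 or R1 FW3 only 1 member was called, LOC_Os10g38610. Without SR86 FW1, SR86 FW2, SR86 FW3 or R1 FW2 the counts were 4, 3, 13 and 5. Over all features 3044, 2496, 4761 and 2500 were called in these fits, against 3261 with all 6 libraries. Without R1 FW1 or R1 FW3 it was 1646 and 1853 features. With the mitochondrial covariate limma called 0 members, with 3 at an unadjusted p under 0.05, and with the plastid covariate it called 0, with 5 at an unadjusted p under 0.05. Calls over all features went from 3261 to 683 and 928, with 3751 and 4330 features at an unadjusted p under 0.05 in limma. Both organelle sums separate SR86 FW from R1 FW, so a lost call does not tell group from organelle level. For LOC_Os10g38610 the log2 fold change was 1.72 and 1.78 with these covariates, but its adjusted p was 0.108 and 0.0638 in limma.

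LOC_Os10g38272 and LOC_Os10g38278 followed the organelle transcripts across the libraries. LOC_Os10g38272, annotated as an ATP synthase B chain, had 8.41, 14.3 and 6.01 FPKM in SR86 SW, against 51.2, 39.2 and 16.04 FPKM in SR86 FW, with R1 FW at 5.89, 9.53 and 4.25 FPKM. LOC_Os10g38278, a chloroplast ribosomal protein by annotation, had 6.69, 12.3 and 4.60 FPKM in SR86 SW, against 46.8, 33.1 and 16.2 FPKM in SR86 FW, with R1 FW at 6.42, 10.3 and 4.27 FPKM. Within every group the order of the libraries was the same for both loci and for the summed plastid and mitochondrial features. For SW against FW in SR86 the log2 fold changes were -1.77 ± 0.48 and -1.94 ± 0.47 (SE, adjusted p = 0.0453 and 0.035 in limma). In SR86 FW the loci were higher than in R1 FW by 2.27 ± 0.47 and 2.07 ± 0.45 (SE, adjusted p = 0.0167 and 0.0189 in limma). With the mitochondrial covariate these 4 differences changed sign. LOC_Os10g38270 fell by 2.78 ± 0.57 on the log2 scale between SW and FW in SR86 (SE, adjusted p = 0.026 in limma), at 0.340, 2.1 and 1.12 FPKM in SR86 SW against the FW values above, and lost its call with either covariate.

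**Figure D5:**
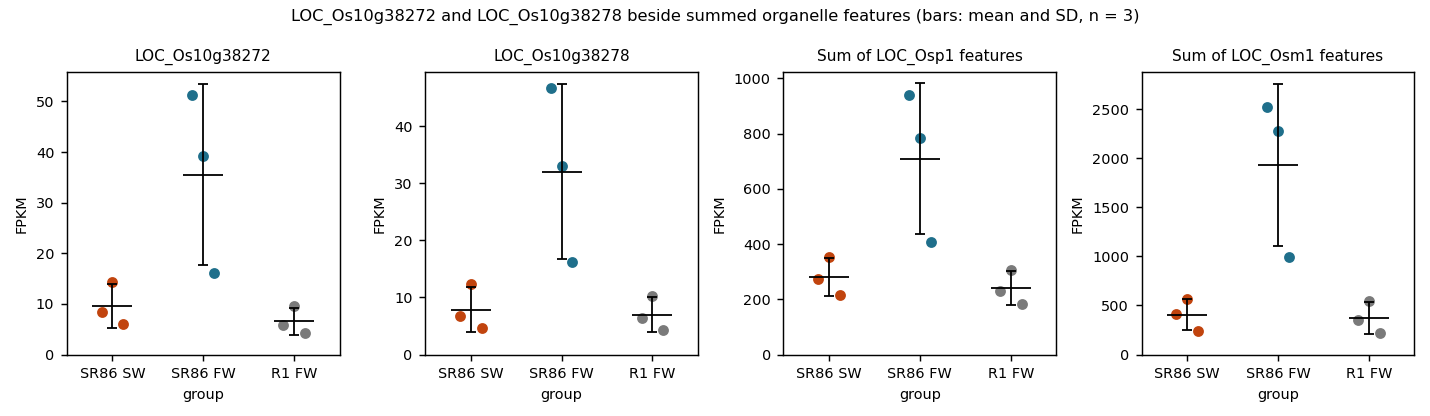
FPKM of LOC_Os10g38272 and LOC_Os10g38278 and of the summed LOC_Osp1 (plastid) and LOC_Osm1 (mitochondrial) features, with 1 point per library and the mean and SD as bars (n = 3 each). In all 4 panels every SR86 FW library is above every SR86 SW and R1 FW library, and SR86 FW3 is the lowest of the SR86 FW libraries.

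The third comparison set SR86 in SW beside R1 in FW. Strain and water differ together in it and cannot be told apart, and it shares the SW libraries with the first comparison and the R1 libraries with the second. It leaves out the SR86 FW libraries, and the organelle and leaf sums overlapped between its groups. In SR86 SW, 15 members were lower and 2 higher among 31 tested, where 19.5% of all 23800 features were called, 7.29% as lower and 12.2% as higher. As deposited, 1735 features were lower and 2909 higher, against 2200 and 2213 with quantile normalization. With this scaling 17 members were lower and 0 higher, of 22 at an unadjusted p under 0.05 in limma. Of all features, 11330 had an unadjusted p under 0.05 in limma with it. As deposited, the median log2 fold change of the members was -0.83, against 0.12 for all features. In the flanks 7 of 84 tested loci were lower and 9 higher. The libraries did not overlap for 19 members lower and 3 higher in SR86 SW, where 20.7% and 32.8% of all features separated in these directions and 53.6% in either. Of the 16 GST loci, 12 were lower and 2 higher, with a median of -1.35. Of the 16 members that fell in SW against SR86 FW, 12 were also called lower than in R1 FW. The other 4 were LOC_Os10g38270, LOC_Os10g38272, LOC_Os10g38278 and LOC_Os10g38590. The shared SW libraries favoured this overlap of calls in advance, and the same overlap over all features was not counted. LOC_Os10g38590 was still lower, at 27.4 ± 0.70 FPKM in SR86 SW and 46.1 ± 5.15 FPKM in R1 FW (SD), without overlap. Its log2 fold change of -0.73 ± 0.10 (SE, adjusted p = 0.00302 in limma) was under the 2-fold limit. LOC_Os10g38270, LOC_Os10g38272 and LOC_Os10g38278 overlapped between the groups.

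LOC_Os10g38350 had the largest difference again, with 18.2, 16.1 and 14.3 FPKM in R1 FW above every SW value, and a log2 fold change of -3.04 ± 0.20 for SW against R1 FW (SE, adjusted p = 0.000181 in limma). LOC_Os10g38340 averaged 7.15 ± 2.68 FPKM in SR86 SW and 33.0 ± 2.24 FPKM in R1 FW (SD, n = 3 each), a log2 fold change of -2.18 ± 0.23 (SE, adjusted p = 0.0011 in limma). For LOC_Os10g38314 it was -1.82 ± 0.22 (SE, adjusted p = 0.00174), and for the cytochrome P450 LOC_Os10g38110 -1.81 ± 0.21 (SE, adjusted p = 0.00159 in limma). These loci were more even in R1 FW than in SR86 FW, and their calls held under every alternative tried. LOC_Os10g38189 had 89.9, 84.2 and 82.0 FPKM in R1 FW and a log2 fold change of -1.69 ± 0.08 (SE, adjusted p = 5.06e-05 in limma).

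LOC_Os10g38600 had 150.4, 173 and 138 FPKM in R1 FW and a log2 fold change of -1.49 ± 0.24 for SW against R1 FW (SE, adjusted p = 0.00511 in limma). LOC_Os10g38489, which missed the threshold against SR86 FW, averaged 61.4 ± 17.6 FPKM in SR86 SW and 149.9 ± 3.24 FPKM in R1 FW (SD, n = 3 each), and its log2 fold change of -1.32 ± 0.20 (SE) was called here (adjusted p = 0.00429 in limma). LOC_Os10g38160 and LOC_Os10g38470 had log2 fold changes of -1.72 ± 0.35 and -1.37 ± 0.21 (SE, adjusted p = 0.0113 and 0.00442 in limma). For LOC_Os10g38360 it was -1.66 ± 0.39 (SE, adjusted p = 0.0194 in limma), a call that was lost without SR86 SW2 or any 1 of the R1 FW libraries. LOC_Os10g38150, LOC_Os10g38640 and LOC_Os10g38610 had log2 fold changes from -1.33 to -1.02.

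LOC_Os10g38450, annotated as a receptor-like protein kinase precursor, stayed low throughout, at 0.150, 0.700 and 0.670 FPKM in SR86 SW, against 2.12, 1.96 and 2.19 FPKM in R1 FW. Its log2 fold change was -1.42 ± 0.27 (SE, adjusted p = 0.00918 in limma), and against SR86 FW, at 1.48, 1.70 and 1.27 FPKM, it was -1.03 ± 0.32 (SE), which was not called (adjusted p = 0.0641 in limma). The 2 higher members were the GSTs LOC_Os10g38140 and LOC_Os10g38580. LOC_Os10g38140 had 1.95, 1.57 and 1.46 FPKM in R1 FW, below every SW value, and a log2 fold change of 1.13 ± 0.17 (SE, adjusted p = 0.0041 in limma). LOC_Os10g38580 had a log2 fold change of 2.15 ± 0.68 (SE, adjusted p = 0.048 in limma), with its call lost without SR86 SW1, SR86 SW2 or any 1 of the R1 FW libraries. Both lost their calls with a pseudocount of 1 and with quantile normalization.

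GST loci elsewhere in the genome were set beside the cluster. Of 28 such loci in the study's lists of changed loci, which were chosen on these libraries and are not independent evidence, 27 were tested between SW and FW in SR86, and 14 fell and 1 rose (median -1.13). The largest fall was LOC_Os09g20220, at 1.95 ± 0.66 FPKM in SW, against 32.5 ± 13.8 FPKM in FW, or -3.69 ± 0.37 on the log2 scale (SE), and the rise was LOC_Os01g27390, at 15.1 ± 5.26 FPKM in SW and 6.49 ± 1.17 FPKM in FW (SD, n = 3 each). In SR86 against R1 in FW, 7 of 28 were higher and 2 lower, with LOC_Os03g04250 the largest rise (1.57 ± 0.36, SE) and LOC_Os01g27210 the largest fall (-3.08 ± 0.11, SE), at 11.1 ± 1.18 FPKM in SR86 FW, against 96.8 ± 4.0 FPKM in R1 FW. In SR86 SW against R1 FW, 11 were lower and 7 higher, and these 2 loci again had the largest changes, at 2.88 ± 0.47 and -3.59 ± 0.08 (SE). In the cluster 2 of 16 GST loci were higher in that comparison, and the difference between the lists was not tested.

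Among 8 other loci that use or make glutathione, chosen in the same way, 4 fell and 2 rose in SW against FW in SR86, of 7 tested. The 4 that fell were glutaredoxins, small enzymes that reduce disulfides with glutathione. The largest fall was OsGrx_C2.2 (LOC_Os04g42930), at 189.6 ± 25.3 FPKM in SW, against 921 ± 363 FPKM in FW (SD, n = 3 each), or -2.19 ± 0.33 on the log2 scale (SE; adjusted p = 0.0155 in limma). The largest rise was LOC_Os12g16200, annotated as glutathione synthetase, the enzyme of the last step of glutathione synthesis. It averaged 7.58 ± 3.49 FPKM in SW and 1.70 ± 1.07 FPKM in FW (SD, n = 3 each), a log2 fold change of 1.90 ± 0.47 (SE, adjusted p = 0.0361 in limma).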

How the data were processed

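Total RNA of roots was made into stranded mRNA libraries. Per the labels, CASAVA 1.8, Bowtie2 and RSEM were used; the study's methods describe trimmed short reads mapped to the MSU6 rice transcripts, with expression estimated by RSEM, which divides reads shared between near-identical copies. The methods also name TMM normalization; whether it entered the deposited FPKM, and whether strand was used, is not given in the sources used here. Reads of SR86 and R1 were mapped to the same reference, so sequence differences from it can alter values. The authors deposited FPKM values rounded to 2 decimals, 1 column per library, with 0 missing values. Counts are not known from them, and the exact depth is unknown, so the authors' count test was not run. Relative depth was read from features above 0 in at most 5 libraries. Groups follow the labels; a sentence of the methods gives the waters the other way round. The study calls the replicates biological.

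The values were fitted as log2(FPKM + 0.5) by limma 3.58.1 (R 4.3.3) with a mean-variance trend, for features that averaged 0.5 FPKM or more in the 6 libraries of a comparison. After Benjamini-Hochberg adjustment over all of these, a feature was called if its adjusted p was under 0.05 and its change was 2-fold or more. The fit was tested on simulated data. Alternatives were other pseudocounts (0.1 and 1) and filters, quantile and median-ratio scaling, all 9 libraries in 1 fit, a replicate block, organelle covariates and the removal of each library. Members and lists were chosen with earlier results of these data known. Named members are those called in any comparison (the 12 largest changes of each in full), the 6 most abundant, the annotated ones and those called against the common direction; outside the cluster, LOC_Os12g16200 and the largest called rise and fall of each list. Annotations come from the study's lists of changed loci; of the feature names, 0 matched the reference gene table used here. Figures were drawn with matplotlib 3.10.9.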

Additional observations from a re-analysis of the deposited data

How the results depend on the processing

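Between SW and FW in SR86, the 17 called members became 11 with no filter (51 members and more low features tested), and 6 and 9 with the summed LOC_Osm1 and LOC_Osp1 features as covariates. Removing 1 library at a time gave 3 to 19. Between SR86 and R1 in FW, the 8 called became 0 with either covariate and 1 to 13 when 1 library was left out. Between SR86 SW and R1 FW, the 17 called stayed at 13 to 17 under all alternatives tried, and 12 of them were called in every one. Over all features, these alternatives called 3293 to 5733, against 4644 in the main fit. With the LOC_Osm1 covariate, the log2 fold change in SW against FW was 0.45 for LOC_Os10g38272 and 0.26 for LOC_Os10g38278, and in SR86 against R1 it was -0.53 for LOC_Os10g38206, -0.092 for LOC_Os10g38272, -0.28 for LOC_Os10g38278 and -0.50 for LOC_Os10g38580. With the LOC_Osp1 covariate it was 0.079 for LOC_Os10g38272 in SW against FW, and -0.30, -0.049 and -0.18 for LOC_Os10g38206, LOC_Os10g38278 and LOC_Os10g38580 in SR86 against R1. The cause of these changes was not tested.

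Scaling moved the median of all features in SW against FW from 0.17 as deposited to 0.01 with quantile normalization and 0.02 with median-ratio factors, and the higher and lower calls from 1995 and 1017 to 1165 and 1368, and 1453 and 1376. The median of the members was -1.44 and -1.52 under these scalings. Over all features, the called number was 1804 with no filter, 1477 and 1911 with the LOC_Osm1 and LOC_Osp1 covariates, and 683 and 928 with these covariates in SR86 against R1.

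The replicate numbers gave no clear pairing of the samples, though these correlations cannot exclude one. Same-numbered libraries correlated in their deviations at -0.06, 0.01 and 0.15 between SW and FW in SR86. They correlated at -0.03, 0.22 and 0.26 between SR86 and R1 in FW, and at -0.03, 0.26 and 0.28 between SR86 SW and R1 FW. In both comparisons with R1, SR86 libraries 2 and 3 correlated best with their own number and library 1 did not. With the replicate block 14, 8 and 16 members were called in the 3 comparisons. Over all features 2048, 3489 and 4822 were called with it, against 3012, 3261 and 4644 without it. Exact tests of single values could not go below p = 0.1 with 3 against 3 libraries. Of the 69 members, 17 were at 0 throughout and 18 more never reached 1 FPKM, so the tests say nothing of most of them.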

Other observations

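Some members without annotation were high or low in single libraries in a way that their group did not share. LOC_Os10g38660 had 25.0, 7.22 and 9.57 FPKM in SR86 SW, against 1.28, 1.60 and 73.6 FPKM in SR86 FW, with R1 FW at 42.6, 33.3 and 45.8 FPKM. SR86 FW3 was thus the highest of all 9 libraries in this locus, while SR86 FW1 and SR86 FW2 were the lowest. It was called lower in SR86 SW than in R1 FW (log2 fold change -1.70 ± 0.43, SE; adjusted p = 0.0247 in limma), a call lost without SR86 SW2 or any 1 of the R1 FW libraries, and between the SR86 groups its SE was 1.40. LOC_Os10g38690 had 10.5 FPKM in SR86 FW2 and at most 1.19 FPKM in any other library, and LOC_Os10g38214 had 9.17 FPKM in SR86 SW1 and at most 1.44 FPKM in any other. LOC_Os10g38208 was listed at 0 in SR86 FW3 and had 1.58 to 9.62 FPKM in the other libraries. LOC_Os10g38670 had 14.1 FPKM in SR86 SW2, against 3.43 and 2.75 FPKM in SR86 SW1 and SR86 SW3. These loci were singled out after their values were seen, apart from LOC_Os10g38660 and LOC_Os10g38670, and the cause was not tested.

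The GST sum was more even in R1 FW than in either SR86 group. It was 313 ± 62.0 FPKM in SR86 SW, against 1147 ± 351 FPKM in SR86 FW, with R1 FW at 807 ± 24.1 FPKM (SD, n = 3 each). Its make-up differed less than its size for most loci, since LOC_Os10g38489 held 19.4 ± 1.87, 17.1 ± 7.67 and 18.6 ± 0.95% of it in these groups and LOC_Os10g38189 held 8.57 ± 1.52, 9.57 ± 2.16 and 10.6 ± 0.46%. LOC_Os10g38350 held 0.54 ± 0.29% in SR86 SW, 2.38 ± 1.18% in SR86 FW and 2.00 ± 0.21% in R1 FW. These shares are descriptions without a test, and reads shared between copies could move signal from one locus to another.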
